A study of Mus musculus with 2 samples.

Results

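Dividing T cells of mouse pancreatic tumors were studied in 2 single-cell RNA libraries. The members were selected on their own UMI counts, not on clusters or sorting. A barcode was taken as a dividing T cell if it had at least 2 unique molecular identifiers (UMIs) of the T cell genes Cd3e, Cd3d, Cd3g, Trac and Trbc2 together and at least 4 UMIs of the cycle genes Mki67, Top2a, Ube2c, Birc5 and Stmn1 together. It also needed at least 1000 UMIs, at least 200 genes and at most 20% of UMIs from mitochondrial genes. Barcodes were left out if the neutrophil granule genes Camp, Ngp, Ltf and Elane held 0.3% of their UMIs or more, if S100a8 and S100a9 held 3% or more, or if they had any UMI of Cd79a or C1qa. Of 14022 barcodes that passed the filters on UMIs, genes and mitochondrial share (the kept barcodes), 87 were dividing T cells, 26 in the PBS library and 61 in the cmExoaCD11b library. The barcodes that passed every condition but the one on cycle genes are called T-gated, and those below the cycle threshold are called the other T cells.

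The tumors grew in the pancreas of male C57BL/6J mice aged 5 to 6 weeks, from K210 cells, a line of a mouse model of pancreatic cancer driven by Pdx1-Cre. Mice of both groups carried the same tumors and were injected intraperitoneally, with PBS as the vehicle control or with cmExoaCD11b. The latter are exosomes of mouse embryonic fibroblasts that carry mRNA of interleukin 12 (IL-12) and the STING agonist 2'3'-cGAMP, with an antibody to CD11b on their surface. Tumor immune cells were taken 48 h after treatment, and each library pooled 3 mice, so the animals cannot be separated and each group has 1 library. No test between the groups was therefore possible and no p-value is given. Intervals are exact 95% intervals (Clopper-Pearson for shares, Poisson for counts, conditional for ratios) and cover counting error only, not the spread between mice.

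A T cell that meets its antigen leaves rest, copies its DNA in S phase and separates the copies in mitosis, often several times within days, and so builds the clones that kill tumor cells or help other immune cells. Genes of DNA replication, such as those of the MCM helicase, are switched on by E2F factors before S phase, and genes of mitosis, such as cyclin B and the kinesins, follow through the DREAM and MuvB complexes with FOXM1. CD8+ T cells become cytotoxic cells with granzymes and perforin, CD4+ T cells become helper or regulatory cells, and IL-12 and type I interferon are among the signals that shape both.

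The 26 dividing T cells of PBS held 576191 UMIs, with a median of 16502 per barcode and a range of 3734 to 64635. The 61 of cmExoaCD11b held 824920, with a median of 10028 and a range of 1464 to 71295. Dividing T cells thus carried more RNA than the other T cells, whose median was 4855 UMIs in PBS and 4033.5 in cmExoaCD11b, and a barcode with more UMIs passes a threshold in UMIs more easily. Levels are therefore given as CPM (counts scaled to a total of 1000000) of the summed UMIs of a group of barcodes, which weights deep barcodes more, and shares of barcodes with a UMI are also given after every barcode was thinned to 1000 UMIs. The libraries shared 15 kept barcode sequences, of which 0 were T-gated.

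The label was checked with T cell markers that had not chosen the members. A UMI of Cd247, Trbc1, Lck, Thy1 or Bcl11b was present in 25 of 26 members in PBS and 61 of 61 in cmExoaCD11b. After thinning the shares were 53.8% and 68.9%, beside 81.8% and 82.9% of the other T cells. A UMI of Cd4, Cd8a or Cd8b1 was present in 23 of 26 and 50 of 61 members. For genes that neutrophils lack, free RNA in the droplets was gauged in barcodes with S100a8 and S100a9 at 3% of UMIs or more and no UMI of the T cell genes (neutrophil-type barcodes). Of these 0.446% and 1.38% had a UMI of the 5 markers after thinning, a share that the choice of barcodes without T cell genes lowers. Cd3e and Mki67 were among the genes that chose the members, so their shares describe the selection and do not check it. Cd3e had a UMI in 25 of 26 members in PBS and 51 of 61 in cmExoaCD11b, or 42.3% and 26.2% after thinning, beside 42.8% and 38.6% of the other T cells. Mki67, the antigen used in tissue sections to count cycling cells, had a UMI in 17 of 26 and 46 of 61 members, or 11.5% and 29.5% after thinning. It had one in 1.10% and 1.501% of the other T cells after thinning. The share was 5.03% and 7.75% in the neutrophil-type barcodes, whose precursors divide themselves, so that it is no measure of free Mki67 RNA.

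**Figure D1:**
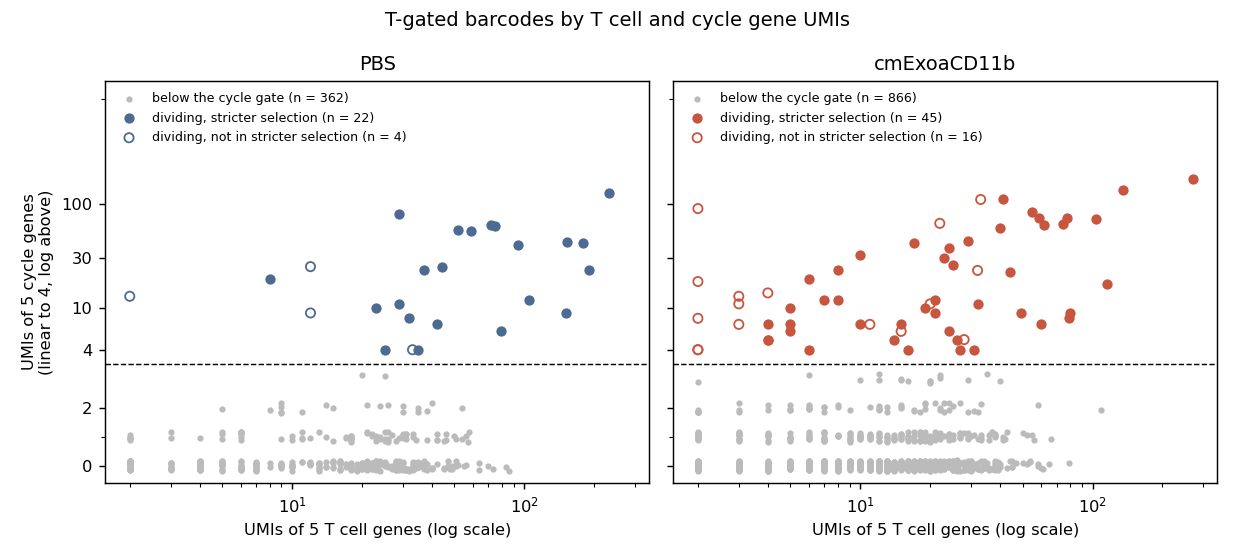
UMIs of the T cell genes (x axis, log scale) against UMIs of the cycle genes (y axis, linear up to 4 and log above) of each T-gated barcode in PBS and cmExoaCD11b; gray points below the dashed line are the other T cells, filled circles are dividing T cells and open circles mark members outside a stricter selection (4 in PBS, 16 in cmExoaCD11b). At least 10 T cell UMIs together with at least 12 cycle UMIs were held by 14 of 26 members in PBS and 22 of 61 in cmExoaCD11b, and more of the cmExoaCD11b members lie near the T cell threshold.

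The thresholds were crossed narrowly by few members. Exactly 4 cycle UMIs were found in 3 of 26 members in PBS and 6 of 61 in cmExoaCD11b, whereas 12 or more were found in 16 and 30. Just outside, 3 cycle UMIs were found in 2 of 388 and 16 of 927 T-gated barcodes. The T cell threshold differed more between the libraries, since 10 or more T cell UMIs were held by 24 of 26 members in PBS (92.3%) but by 41 of 61 in cmExoaCD11b (67.2%), and exactly 2 by 1 and 5. Just outside this threshold, 16 kept barcodes in PBS and 15 in cmExoaCD11b missed the selection by a single T cell UMI. The plot of T cell against cycle UMIs shows this tail toward few T cell UMIs.

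Some members carried RNA of other cell types, with a list of markers of another type at 0.5% of UMIs or more in 4 of 26 (15.4%) and 8 of 61 (13.1%). Some single barcodes stood out by genes of another type, whether or not a list reached 0.5%. In each library 1 member had only 2 T cell UMIs beside 245 (PBS) and 293 (cmExoaCD11b) UMIs of epithelial markers, with 62 and 93 UMIs of Krt8, a keratin of epithelium. The epithelial list made up 0.729% and 0.411% of their UMIs. These 2 barcodes also held 79 and 45 UMIs of Xist, the RNA of the inactive X chromosome. The mice that received the tumor cells were male, and the sex of the mouse that gave the K210 line is not stated. In cmExoaCD11b a member with 4 T cell UMIs had 22.4% of its RNA from plasma cell markers, with 1134 UMIs of Ighg1 and 2127 of Igkc, both immunoglobulin chains. Others had 14 T cell UMIs beside 30 UMIs of Mcpt8, a basophil protease, or 7 beside 8 UMIs of Dntt and 4 of Kit, genes of early progenitors. Their highest lists of another type stood at 0.385% and 0.0822% of UMIs.

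Summed over the members, the neutrophil list (9 of 9 genes found in both libraries, most UMIs from S100a9) stood at 1224 CPM in PBS and 3219 in cmExoaCD11b. The neutrophil precursor list (9 of 9, led by Chil3) stood at 370 and 1748 CPM. The list of macrophages and monocytes (11 of 12 genes, led by Lyz2, with C1qa at 0 by the selection) stood at 798 and 1902 CPM, and the plasma cell list (4 of 6 and 6 of 6 genes, led by Igkc) at 250 and 3147. These lists were thus higher in the cmExoaCD11b members, and their part in the differences below was not tested. The dendritic cell list (6 and 8 of 10 genes, led by Cd74) was at 1114 and 1277 CPM, with Xcr1 and Siglech at 0. Of the natural killer (NK) list (5 of 9 genes in each library, 529 and 878 CPM, led by Fcer1g), the defining receptors Ncr1 and Klrb1c were at 0 in every member, and so was Ms4a1 of B cells. A stricter selection, chosen after the data had been seen, asked for 4 T cell UMIs and for lists of other cell types to be under 0.5%. These were the lists of neutrophils, their precursors, macrophages and monocytes, dendritic cells, mast cells and basophils, epithelium, B cells and plasma cells. The NK list was not among them. This selection kept 22 members in PBS and 45 in cmExoaCD11b, and its ratios or counts are given beside those of most gene lists below. In it the ratio of cmExoaCD11b to PBS was 1.06 for the neutrophil list, 2.12 for the precursor list and 0.703 for the macrophage list. It was 1.60 for the plasma cell list and 0.448 for the dendritic cell list. The members with Mcpt8 and with Dntt and Kit were kept, and the mast and basophil list stood at 1.97 and 101 CPM there. Also kept were 2 PBS members with 34 and 72 UMIs of Ctsk, an enzyme that is not a T cell marker. They held 52510 and 64635 of the 507342 UMIs of the 22 PBS members, so they weigh on every PBS level of this selection. Ratios of the whole selection without them were not computed.

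Dividing cells made up about the same part of the T cells in both libraries, but of a larger T cell population in cmExoaCD11b. Of the T-gated barcodes, 26 of 388 were dividing in PBS (6.70%, 4.42 to 9.66) and 61 of 927 in cmExoaCD11b (6.58%, 5.07 to 8.37), a ratio of 0.982 with an interval of 0.611 to 1.62. The ratio was above 1 with a cycle threshold of 3 UMIs (1.15), with a threshold of 2 UMIs after thinning (1.12) and with 2 UMIs of the cycle genes without Stmn1 (1.35, 0.914 to 2.05). The T-gated barcodes themselves were 5.62% of kept barcodes in PBS and 13.0% in cmExoaCD11b, 2.32 times as many (2.06 to 2.62). Dividing T cells accordingly made up 0.377% (0.246 to 0.551) and 0.857% (0.656 to 1.10) of kept barcodes, a ratio of 2.28 (1.42 to 3.75), which is larger than counting error but has no replicate check. Among kept barcodes that were not T-gated, the cycle genes reached 4 UMIs in 707 of 6516 in PBS and 1243 of 6191 in cmExoaCD11b, or 1.85 times the share (1.69 to 2.03). The share of T-gated barcodes with 0 cycle UMIs was 67.3% and 66.8%.

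The genes that chose the members were themselves at different levels in the libraries, which is given as a description only. Mki67 stood at 97.2 CPM in PBS (56 UMIs) and 308 in cmExoaCD11b (254 UMIs). Top2a, the topoisomerase that untangles chromosomes, stood at 179 and 389 CPM, and Ube2c, which helps to destroy mitotic cyclins, at 260 and 463. Stmn1, a tubulin-binding protein, was closer at 633 and 706 CPM. Of the T cell genes, Cd3e stood at 550 and 322 CPM, Trac at 387 and 475 and Trbc2 at 916 and 701.

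Among the members as selected, genes of mitosis were at higher levels in cmExoaCD11b, whereas genes of DNA replication were at similar levels in both libraries. These levels are not independent of the selection, which asked for a fixed number of cycle UMIs whatever the depth. The cycle genes that chose the members had a median of 1.18 UMIs per 1000 in PBS and 1.76 in cmExoaCD11b. How far selection and depth set the difference in mitosis genes was not tested. The list of 45 S phase genes summed to 3370 CPM in PBS (3222 to 3524) and 3119 in cmExoaCD11b (3000 to 3242), a ratio of 0.925. The list of 49 genes of G2 and mitosis (G2/M) summed to 4870 CPM and 7300 (7117 to 7487), a ratio of 1.499, or 1.81 in the stricter selection. The G2/M sum was thus 1.44 times the S sum in PBS and 2.34 times in cmExoaCD11b, and 1.39 and 2.71 times in the stricter selection. In the other T cells these ratios were 1.16 and 1.24, and in the dividing barcodes with neutrophil granule genes and under 2 T cell UMIs they were 3.43 and 3.22.

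Promoters of both kinds of genes are shown because they carry the letters by which replication genes and mitosis genes are usually told apart. The windows are from RefSeq on GRCm38.p6 and run from 250 bases before to 50 after the start of transcription, on the strand of the gene. Capitals mark the CHR element (TTTGAA or TTCGAA), the CCAAT box (CCAAT) and the E2F site (TTTGGCGC, TTTCGCGC, TTTCCCGC or TTTGCCGC), each searched on both strands, where adjoining or overlapping matches form a single run of capitals. Cdk1, the kinase that starts mitosis, lies on the minus strand at chr10:69352863-69353162. Cenpf, a protein of the kinetochore, lies on the minus strand at chr1:189688037-189688336. Mcm6, a subunit of the replicative helicase, lies on the minus strand at chr1:128359656-128359955.
Cdk1: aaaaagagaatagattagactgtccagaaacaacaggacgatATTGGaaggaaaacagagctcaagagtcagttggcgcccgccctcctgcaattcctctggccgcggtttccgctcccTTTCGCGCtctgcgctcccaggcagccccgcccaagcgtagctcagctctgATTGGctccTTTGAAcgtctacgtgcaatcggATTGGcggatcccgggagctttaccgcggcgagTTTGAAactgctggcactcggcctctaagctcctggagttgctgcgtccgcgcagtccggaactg
Cenpf: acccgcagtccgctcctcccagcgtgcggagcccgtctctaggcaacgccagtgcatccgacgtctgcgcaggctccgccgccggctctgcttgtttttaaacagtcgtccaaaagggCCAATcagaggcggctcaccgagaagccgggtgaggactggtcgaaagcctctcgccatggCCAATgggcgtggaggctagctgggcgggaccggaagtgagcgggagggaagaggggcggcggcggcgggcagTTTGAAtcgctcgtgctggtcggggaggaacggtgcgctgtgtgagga
Mcm6: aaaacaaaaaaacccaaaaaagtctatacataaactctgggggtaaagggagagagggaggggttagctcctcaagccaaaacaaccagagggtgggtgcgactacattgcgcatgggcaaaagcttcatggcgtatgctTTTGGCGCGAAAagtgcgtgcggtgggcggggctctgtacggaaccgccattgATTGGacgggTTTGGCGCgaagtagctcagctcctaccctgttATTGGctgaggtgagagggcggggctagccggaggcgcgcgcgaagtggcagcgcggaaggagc

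The Cenpf window holds a CHR and 2 CCAAT boxes and no E2F site, the Mcm6 window holds 3 E2F matches and 2 CCAAT boxes and no CHR, and the Cdk1 window holds all 3 kinds. Over the lists, 42 of 49 G2/M genes and 35 of 45 S genes had a RefSeq promoter, 47 and 39 windows in all. A CHR match was found in 72.3% of G2/M windows, 17.9% of S windows and 19.2% of all 32851 windows. An E2F match was found in 6.38%, 38.5% and 2.26%. CCAAT boxes were common to both lists, at 74.5% and 66.7% against 37.4% of all windows, and a CHR together with a CCAAT box was found in 57.4%, 12.8% and 7.52%. A CHR match was also found in 47.1% of 17 windows of the interferon-stimulated genes and 33.3% of 15 windows of the effector genes described below. A match describes the letters of a window and not a bound site.

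Between the libraries, 4770 genes had at least 50 UMIs in the dividing T cells of both libraries together, and ratios were taken with 1 UMI added to each sum. Of these, 11.9% were at least 2-fold higher in cmExoaCD11b and 3.27% at least 2-fold lower, with a median ratio of 1.11 over all genes. Of the genes that passed, 569 were higher and 156 lower (78.5% higher), or 416 and 269 (60.7% higher) if the median ratio was set to 1, a shift of 0.15 on the log2 scale. Of 38 measured G2/M genes 8 were at least 2-fold higher and 0 lower, with a median of 1.56 and 37 above 1. Of 32 measured S genes 2 were higher and 0 lower, with a median of 0.951. In the stricter selection 15 of 32 measured G2/M genes and 3 of 28 S genes were at least 2-fold higher, beside 472 higher and 190 lower of all 3604 genes measured there, and the S list had a ratio of 0.927.

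Cenpf had 46.9 CPM in PBS (9 of 26 members with a UMI) and 141 in cmExoaCD11b (28 of 61), a ratio of 2.92 (1.96 to 4.75). Cenpe, a kinesin that moves chromosomes to the cell's middle, had 38.2 and 98.2 CPM, and Kif11, the motor that pushes the spindle poles apart, had 71.2 and 145. The other G2/M genes past 2-fold were Ccnb1 (cyclin B1, 39.9 and 94.6 CPM), the spindle kinase Aurka (17.4 and 49.7), the condensin subunit Ncapd2 (36.4 and 104), Ect2 (41.7 and 90.9), which acts in cytokinesis, and Lbr of the nuclear envelope (50.3 and 149). Aurka rested on few members in PBS, where 4 of 26 had a UMI and 1 of them held 70.0% of the UMIs. Not every gene of the list was apart, since Cdk1 itself stood at 95.5 and 119 CPM, a ratio of 1.23 (0.886 to 1.76), and Ccnb2 at 123 and 137.

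Of the S genes, Clspn, a checkpoint adaptor at replication forks (26.03 and 69.1 CPM), and the helicase Blm (19.1 and 50.9) were past 2-fold. The helicase subunit Mcm6 stood at 125 CPM and 87.3, with 72 UMIs in each library and a ratio of 0.698 (0.497 to 0.982). Pcna, the clamp that holds the polymerase on DNA, stood at 207 and 196 CPM, a ratio of 0.949 (0.746 to 1.22). The enzymes of thymidine supply were on the lower side, Tyms at 142 and 93.3 CPM and Dut at 425 and 255.

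By cell, more members had more G2/M than S UMIs in cmExoaCD11b, but by an amount within counting error. This was seen in 14 of 26 members in PBS (53.8%, 33.4 to 73.4) and 46 of 61 in cmExoaCD11b (75.4%, 62.7 to 85.5), a ratio of 1.40 (0.756 to 2.76), and in 46.2% and 68.9% after thinning. With members chosen by 2 cycle UMIs after thinning (16 and 43 members), the ratio was 1.05 (0.533 to 2.24). The G2/M part of a member's phase UMIs ran from 25.7% over a median of 56.9% to 94.7% in PBS and from 22.2% over 69.7% to 93.3% in cmExoaCD11b. The ranges overlapped almost fully, and 7 and 11 members lay between 40% and 60%, where a call of either phase is arbitrary. S UMIs per 1000 had a median of 2.83 and 3.30, and G2/M UMIs per 1000 had a median of 4.53 and 5.78. Among members with Cd8a or Cd8b1 and no Cd4 the G2/M sum was larger in 9 of 16 and 19 of 26, and among those with Cd4 alone in 3 of 6 and 18 of 22.

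**Figure D2:**
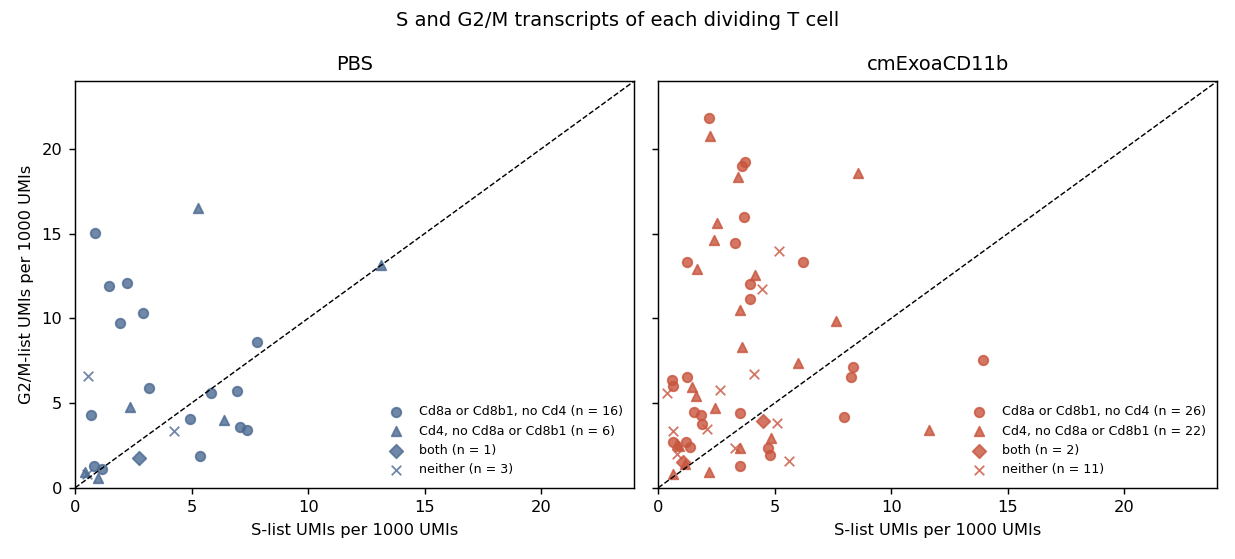
S-list UMIs per 1000 UMIs (x axis) against G2/M-list UMIs per 1000 UMIs (y axis) of each dividing T cell in PBS (26) and cmExoaCD11b (61), with a symbol for each class of Cd4 and Cd8 UMIs and a dashed line of equal sums. The points of both libraries overlap, and 46 of 61 in cmExoaCD11b lie above the line against 14 of 26 in PBS.

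Cycle regulators had a median ratio of 1.56, like the G2/M genes, whereas the lists of chromatin, nucleotide synthesis and glycolysis had medians below 1. Of 18 measured cycle regulators 1 was past 2-fold, Cdkn1a (p21, a brake of cyclin-dependent kinases), at 60.7 and 177 CPM, a ratio of 2.85 that was 1.69 in the stricter selection, and 1 member held 37.0% of its UMIs in cmExoaCD11b. Of 13 chromatin and tubulin genes 0 were past 2-fold, with a median of 0.865. Of 10 measured genes of nucleotide synthesis 1 was higher (Dck, which salvages nucleosides) and 3 were lower in cmExoaCD11b (Impdh2, Gart and Atic of purine synthesis), with a median of 0.625, and the sum of this list had a ratio of 0.664, or 0.611 in the stricter selection. The glycolysis list stood at 8952 CPM in PBS and 5980 in cmExoaCD11b, a ratio of 0.668, or 0.614 in the stricter selection, and its enzymes Gapdh (3259 and 2052 CPM) and Ldha (1210 and 667) were both on the lower side. Of its 16 measured genes 1 was past 2-fold, the glucose transporter Slc2a3, which was higher. Of 4 measured p53 targets and 12 stress genes 0 were past 2-fold, and their medians were 0.879 and 1.35. In the stricter selection 6 of 16 cycle regulators and 4 of 12 stress genes were at least 2-fold higher and 0 lower, of 13 chromatin and tubulin genes 1 was higher and 1 lower, and of 7 genes of nucleotide synthesis 0 were higher and 3 lower.

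By their Cd4 and Cd8 UMIs, both libraries held dividing cells of both lineages, with more members called CD8+ than CD4+. A member with a UMI of Cd8a or Cd8b1 and none of Cd4 is called CD8+, and one with the reverse CD4+. In PBS 16 of 26 members were CD8+ (61.5%, 40.6 to 79.8), 6 were CD4+ (23.1%, 8.97 to 43.6), 1 had both and 3 neither. In cmExoaCD11b 26 of 61 were CD8+ (42.6%, 30.04 to 55.9), 22 were CD4+ (36.1%, 24.2 to 49.4), 2 had both and 11 neither. The CD8+ share was thus 0.693 times that of PBS (0.358 to 1.38) and the CD4+ share 1.56 times (0.615 to 4.71), and neither difference was larger than counting error. Within each library the intervals of the CD8+ and CD4+ shares overlapped. CD8+ was called by either Cd8a or Cd8b1 and CD4+ by Cd4 alone, which had fewer UMIs, so the lineages were not detected alike. Most CD4+ calls in PBS rested on 1 Cd4 UMI.

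After thinning to 1000 UMIs, 42.3% and 23.0% of members were CD8+, against 22.1% and 24.7% of the other T cells. CD4+ members were 0 of 26 and 8.20%, against 10.8% and 10.7% of the other T cells. Free RNA gave a Cd4 UMI in 1 of 2465 thinned neutrophil-type barcodes in PBS and 3 of 3123 in cmExoaCD11b, and a Cd8a UMI in 1 and 6. Read the other way, 16 of 140 CD8+ T-gated barcodes were dividing in PBS (11.4%) and 26 of 371 in cmExoaCD11b (7.01%), a ratio of 0.613 (0.317 to 1.22). Of CD4+ T-gated barcodes 6 of 134 (4.48%) and 22 of 246 (8.94%) were dividing, a ratio of 1.997 (0.785 to 6.02). Both intervals include 1.

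**Figure D3:**
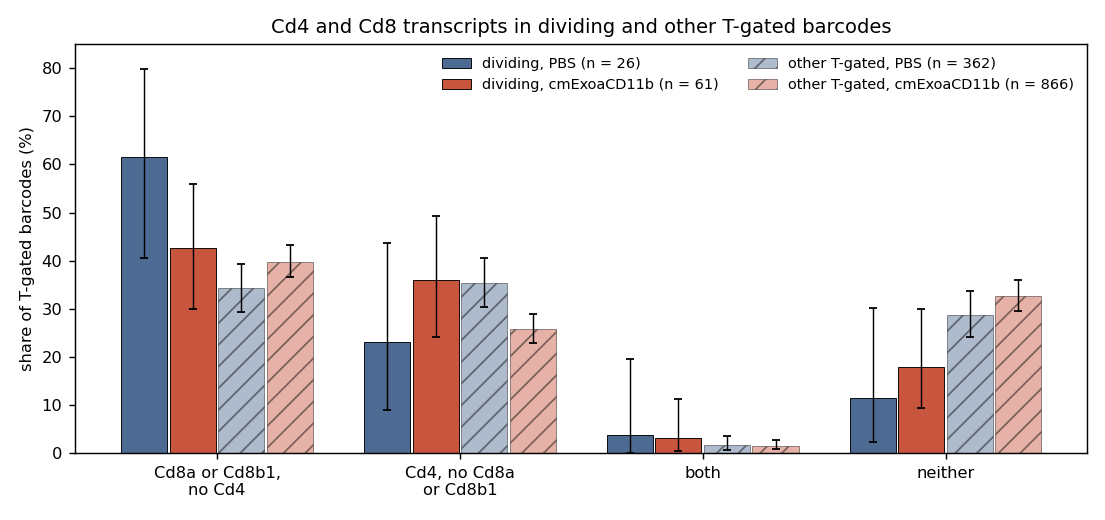
Share of barcodes (y axis, percent) that were CD8+, CD4+, both or neither by their Cd4, Cd8a and Cd8b1 UMIs, for dividing T cells and the other T cells of PBS and cmExoaCD11b; lines are exact 95% intervals. The intervals of the dividing T cells of PBS (26 barcodes) and cmExoaCD11b (61 barcodes) overlap in every class.

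Of the lineage genes, Cd4 had a higher and Cd8a and Cd8b1 a lower level in cmExoaCD11b. Cd4 summed to 15 UMIs in PBS (26.03 CPM) and 66 in cmExoaCD11b (80.0 CPM), a ratio of 2.92 (1.74 to 5.80). These sums rested on few cells, since 1 member held 8 of the 15 UMIs in PBS and 1 member held 15 of the 66 in cmExoaCD11b. Cd8a stood at 354 and 153 CPM, a ratio of 0.433 that was 0.566 in the stricter selection, and Cd8b1 at 295 and 170. Of the factors that fix the lineages, Zbtb7b (ThPOK, of CD4+ cells) had 2 and 18 UMIs, a ratio of 4.42 (1.51 to 55.9), and Runx3 (of CD8+ cells) had 168 and 264 CPM.

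Of 11 genes of helper cells 6 were measured, of which 3 were at least 2-fold higher in cmExoaCD11b and 0 lower, and the list had a ratio of 2.36, or 3.29 in the stricter selection, where 3 of 4 were higher. Maf, a factor of cells that make IL-4, IL-10 and IL-21, stood at 45.1 and 176 CPM, a ratio of 3.78 (2.55 to 6.16), and Gata3, the factor of type 2 helper cells, at 20.8 and 66.7 CPM, a ratio of 3.01 (1.69 to 6.57). Il4 had 0 UMIs in PBS and 88 in cmExoaCD11b, at least 20.5-fold higher against a floor of 3 UMIs over the PBS members, but in only 6 members. Of these UMIs 53 came from 1 member with 103 T cell UMIs, 26 from another with 79 and 5 from the member with Mcpt8. Il21, a cytokine that acts on B cells and CD8+ cells, had 0 UMIs and 15 in 5 members, and Il10 had 1 and 24 UMIs, 12 of the latter in 1 member. Both were under the minimum of 50 UMIs. Tbx21 (T-bet), the factor of type 1 helper cells and cytotoxic cells, was closer at 83.3 and 118 CPM, and Il17a and Il13 were at 0 in both libraries.

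Foxp3, the defining factor of regulatory T cells, had few UMIs in all T cells. It had 0 UMIs in PBS, for which the upper limit is 6.40 CPM, and 4 UMIs in cmExoaCD11b, all in 1 member that also held 100 UMIs of Gzmb. After thinning a Foxp3 UMI was present in 0 of 26 and 1 of 61 members and in 1.10% and 0.577% of the other T cells, so a shortage or excess of regulatory cells was not detectable at this depth. Il2ra, the receptor chain they share with activated T cells, stood at 36.4 and 48.5 CPM. Of 6 measured genes of the regulatory list 0 were past 2-fold higher and 1 lower, with a median of 1.09, and in the stricter selection 2 of 5 were higher and 1 lower. Trdc, the constant chain of the gamma-delta receptor, had 17 UMIs in PBS, 15 of them in 1 member, and 0 in cmExoaCD11b, at least 8.11-fold lower there. Rag1, Rag2 and Ptcra of immature thymocytes were at 0 in both libraries. A UMI of a T cell receptor beta variable gene was seen in 1 and 6 members, too few to describe clones from these 3' libraries.

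The effector list, which holds chemokines and cytokines beside cytotoxic genes, had a lower sum in the dividing T cells of cmExoaCD11b than in those of PBS. The list of 19 genes, led by the chemokine Ccl5, summed to 10443 CPM in PBS (10181 to 10710) and 7638 in cmExoaCD11b (7451 to 7829), a ratio of 0.731, and 0.949 in the stricter selection. The latter keeps the 2 deep PBS members with Ctsk, of 52510 and 64635 UMIs, which held only 50 and 14 effector UMIs. Its ratio without them was not computed. In the other T cells the list stood at 12511 and 17632 CPM. No test of the difference between these contrasts was possible with 1 library per group. The direction was not stable, since it turned where the members were chosen after thinning to 1000 UMIs (1.24) or without Stmn1 (1.05).

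Of 16 measured effector genes 1 was at least 2-fold higher and 7 were at least 2-fold lower in cmExoaCD11b, with a median of 0.662. Xcl1, a chemokine that draws dendritic cells, had 592 UMIs in PBS (1027 CPM) and 40 in cmExoaCD11b (48.5 CPM). Ccl3 stood at 1310 and 406 CPM and interferon gamma (Ifng) at 536 and 207. Prf1, the pore former of cytotoxic granules, stood at 240 and 61.8 CPM. The granzymes Gzmc (96 and 2 UMIs, a ratio of 0.0216 with an interval of 0.00174 to 0.0540) and Gzmf (74 and 0 UMIs, at least 35.3-fold lower) and the cystatin Cst7 (118 and 49.7 CPM) were also lower. The gene that was higher was Fasl, the ligand of a death receptor, at 20.8 and 61.8 CPM, a ratio of 2.79 (1.56 to 6.12).

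Several of these sums in PBS came from single cells. A CD8+ member with 42942 UMIs and 151 T cell UMIs held 314 of the 417 Gzmb UMIs, 92 of 96 of Gzmc, 72 of 74 of Gzmf, 71 of 138 of Prf1 and 199 of 309 of Ifng. Another member with 54517 UMIs held 289 of the 592 UMIs of Xcl1, and a member with 22414 UMIs held 230. In cmExoaCD11b 31 of the 51 UMIs of Prf1 came from 1 member. If the member with most UMIs of a gene was left out of each library, gene by gene, 14 effector genes still had 50 UMIs, of which 3 were at least 2-fold higher and 4 at least 2-fold lower, with a median of 0.848. Ifng then had a ratio of 0.833 (0.646 to 1.08). Xcl1 (0.0513), Prf1 (0.205) and Ccl3 (0.296) were among the lower genes, but still rested on few PBS cells, since the member with 54517 UMIs held 49 of the remaining 67 UMIs of Prf1 and 223 of 515 of Ccl3, and that with 22414 UMIs held 230 of 303 of Xcl1. In the stricter selection 2 of 16 effector genes were at least 2-fold higher and 7 lower. By cell the effector UMIs per 1000 ran from 0.0298 over a median of 8.80 to 36.0 in PBS and from 0 over 6.56 to 51.5 in cmExoaCD11b, so the groups overlapped.

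The ratios of the main granzymes depended on single members. Gzmb stood at 724 and 712 CPM, a ratio of 0.983 (0.866 to 1.12) that was 1.40 in the stricter selection, with a UMI in 13 of 26 and 31 of 61 members. Without the member with most Gzmb UMIs of each library, it stood at 193 and 581 CPM, a ratio of 2.98 (2.42 to 3.76). Gzma, the other main granzyme of cytotoxic cells, stood at 392 and 629 CPM, a ratio of 1.60 (1.37 to 1.88) that was 4.07 in the stricter selection and 2.08 (1.70 to 2.59) without the member with most Gzma UMIs of each library, with a UMI in 7 of 26 and 21 of 61. After thinning, a Gzma UMI was present in 15.4% and 23.0% of members and 6.35% and 21.9% of the other T cells, against 0.0406% and 0.416% of neutrophil-type barcodes. For Gzmb the thinned shares were 23.1% and 24.6% of members, 14.9% and 24.1% of the other T cells and 0.0811% and 0.256% of neutrophil-type barcodes. Gzmk stood at 111 and 127 CPM and Tnf at 90.2 and 90.9.

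By cell, the median of effector UMIs was higher in CD8+ than in CD4+ members, at 10.96 and 2.22 UMIs per 1000 in PBS and 10.3 and 4.01 in cmExoaCD11b, but the ranges overlapped. The summed list stood at 10438 CPM in CD8+ and 6688 in CD4+ members of cmExoaCD11b, and at 12956 and 6374 in the stricter selection. In PBS it stood at 14547 CPM in CD8+ members, but the sum of the 6 CD4+ members depended on single barcodes. It was 5291 CPM over all 6, 1714 in the stricter selection, which leaves out a barcode with 656 of their 924 effector UMIs and 2.94% of UMIs from dendritic cell markers, 14955 over the 4 members with under 10 UMIs of Ctsk, a choice made with the data in view, and 5196 over the 3 that met both conditions. The 2 members with more Ctsk, of 52510 and 64635 UMIs, held 34 and 72 UMIs of Ctsk, an enzyme that is not a T cell marker, and most of the depth. The sum of Gzma followed the lineage, at 698 CPM in CD8+ and 0 UMIs in CD4+ members of PBS and at 1365 and 37.9 CPM in cmExoaCD11b. In PBS, however, 104 and 96 of the 226 Gzma UMIs in CD8+ members came from 2 barcodes, and the median there was 0. The barcode with 96 also held 15 UMIs of Trdc. In the stricter selection Gzma stood at 424 CPM in CD8+ members of PBS. Gzmb had a median of 0.496 UMIs per 1000 in CD8+ members of PBS and 0.517 in those of cmExoaCD11b, and of 0 in CD4+ members of both. The 22 CD4+ members of cmExoaCD11b held 225 Gzmb UMIs, but 118 and 100 of them came from 2 barcodes. Cd40lg, the signal of helper cells to antigen-presenting cells, had 0 UMIs in CD8+ members of both libraries and stood at 126 and 59.97 CPM in CD4+ members.

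Interferon-stimulated genes were higher in cmExoaCD11b over all dividing T cells and in CD8+ members, whereas in CD4+ members the direction depended on which of the 6 barcodes of PBS were kept. The list of 23 genes summed to 1968 CPM in PBS (1855 to 2086) and 4124 in cmExoaCD11b (3987 to 4265), a ratio of 2.10, or 2.55 in the stricter selection. Of 21 measured genes 14 were at least 2-fold higher and 0 lower, with a median of 2.28, and 20 were above 1. In the stricter selection 11 of 15 were higher and 0 lower. In CD8+ members the list stood at 1263 and 3879 CPM, with medians of 1.24 and 1.70 UMIs per 1000. In CD4+ members it stood at 2531 and 4977 CPM, with medians of 3.87 and 4.60 UMIs per 1000, and at 1982 and 4552 CPM in the stricter selection. In PBS it was 5634 CPM in the 4 CD4+ members with under 10 Ctsk UMIs, of which the barcode with dendritic cell markers held 132 of 324 list UMIs, and 4890 CPM in the 3 that also passed the stricter selection, so that no difference between the libraries was shown for CD4+ members. By cell it ran from 0.220 over a median of 1.81 to 7.29 UMIs per 1000 in PBS and from 0.441 over 3.04 to 30.4 in cmExoaCD11b. The groups overlapped, and the highest cells were in cmExoaCD11b.

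Isg15, a ubiquitin-like protein that interferon induces, had 170 UMIs in PBS (295 CPM, 16 of 26 members) and 709 in cmExoaCD11b (859 CPM, 51 of 61 members), a ratio of 2.90 (2.46 to 3.46). An Isg15 UMI was also present in 12.3% and 35.4% of thinned neutrophil-type barcodes, but neutrophils can express this gene themselves, so these shares do not measure free RNA. Zbp1, a sensor of Z-form nucleic acid, stood at 36.4 and 160 CPM, a ratio of 4.22 (2.76 to 7.33). The DNA-binding protein Ifi209 stood at 27.8 and 184 CPM and Stat2, a part of the factor that interferon activates, at 12.1 and 70.3. Slfn5 had 2 and 74 UMIs, a ratio of 17.5 (6.91 to 217), and Ifit3, which binds foreign RNA, had 13.9 and 54.6 CPM. Bst2, a surface protein that tethers viruses, was the measured gene below 1, at 203 and 165 CPM, with 61 of its 117 UMIs in PBS in 1 member. Usp18, which limits interferon signaling, had 1 and 42 UMIs and was under the minimum for the count of genes.

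**Figure D4:**
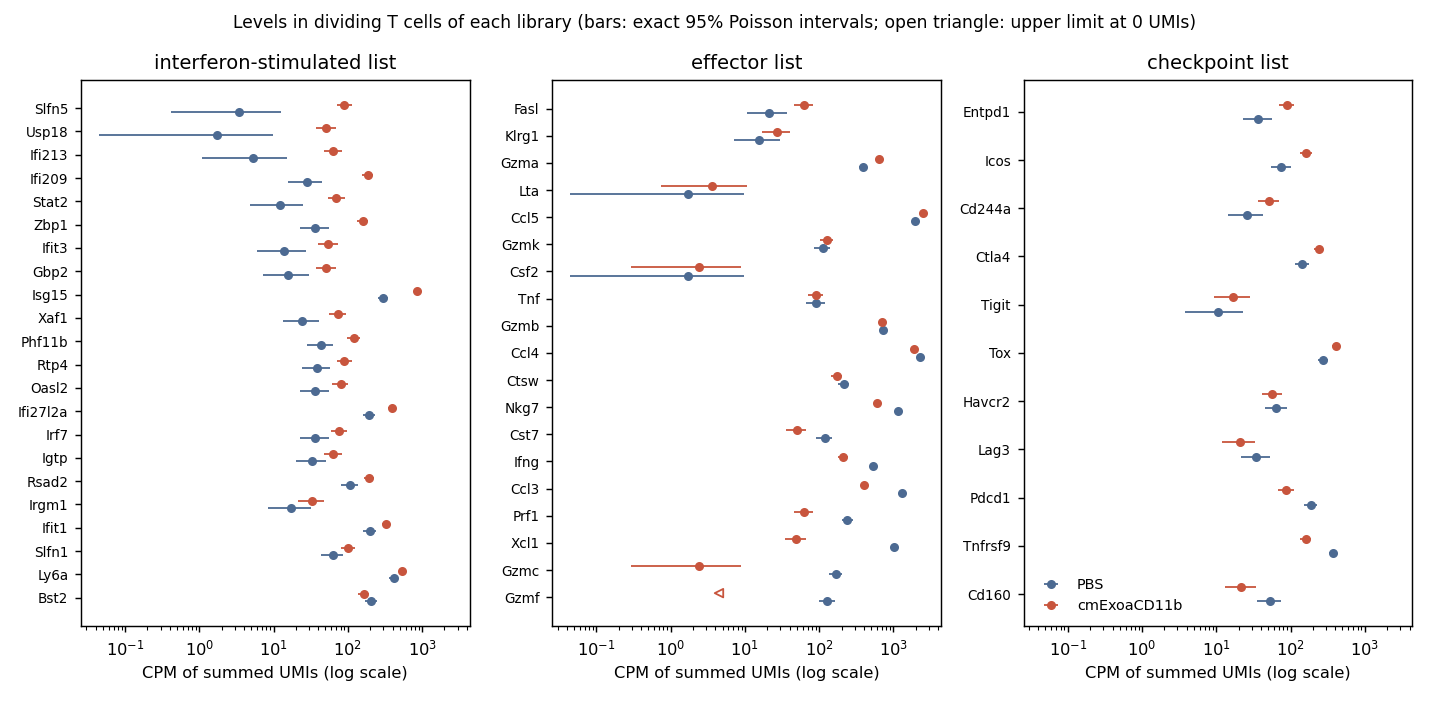
Level of interferon-stimulated, effector and checkpoint genes (x axis, CPM, log scale) in the dividing T cells of PBS and cmExoaCD11b; lines are exact 95% Poisson intervals and the open triangle is the upper limit of a gene with 0 UMIs. The interferon-stimulated genes drawn are all higher in cmExoaCD11b except Bst2, and of 16 measured effector genes 7 are at least 2-fold lower.

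Checkpoint genes had no common direction. The list stood at 1281 and 1314 CPM, a ratio of 1.03 that fell below 1 (0.926) if the median ratio of all genes was set to 1. The ratio stood at 1.26 in the stricter selection, 1.57 as a mean over cells and 1.45 with members chosen by 2 cycle UMIs after thinning. The stricter selection keeps the 2 deep PBS members with Ctsk, which held only 6 and 2 checkpoint UMIs, and its ratio without them was not computed. Of 8 measured genes 5 had a ratio above 1, with a median of 1.56. At least 2-fold higher in cmExoaCD11b were 2 of them, the ectonucleotidase Entpd1 (CD39, 36.4 and 89.7 CPM) and the costimulator Icos (74.6 and 162). Pdcd1 (PD-1) was lower at 186 and 87.3 CPM, a ratio of 0.472 (0.344 to 0.640), and so was the costimulator Tnfrsf9 (4-1BB) at 375 and 160. In the stricter selection 3 of 7 measured genes were at least 2-fold higher and 0 lower, with ratios of 0.639 for Pdcd1 and 0.543 for Tnfrsf9. Tox, a factor of exhausted T cells, stood at 278 and 406 CPM and Ctla4 at 144 and 241. In PBS the list was higher in CD8+ than in CD4+ members (1847 and 407 CPM, or 1096 in the 4 CD4+ members with under 10 Ctsk UMIs and 1452 in the 3 also in the stricter selection), whereas in cmExoaCD11b it was not (1261 and 1635).

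Genes of naive and memory T cells stood at 1984 and 2861 CPM, a ratio of 1.44, or 1.39 in the stricter selection. Of 11 measured genes 4 were at least 2-fold higher in cmExoaCD11b and 0 lower (5 and 0 of 10 in the stricter selection), with a median of 1.80. Tcf7, the factor of T cells that renew themselves, had 34.7 and 88.5 CPM, with 45.2% of the cmExoaCD11b UMIs in 1 of 13 members. Among the others were Lef1 and Ly6c2 (85.04 and 332 CPM), which is also a gene of the monocyte list. Ccr7, the receptor for homing to lymph nodes, had 0 and 10 UMIs, at least 2.33-fold higher.

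Genes that receive IL-12 and IL-2 stood at 1635 and 2176 CPM, a ratio of 1.33, or 1.45 in the stricter selection. Of 15 measured genes 3 were at least 2-fold higher in cmExoaCD11b and 0 lower (3 and 0 of 13 in the stricter selection), with a median of 1.22. These were the kinase Jak2, which acts at the IL-12 receptor (69.4 and 234 CPM, in 16 of 26 and 41 of 61 members, a ratio of 3.31 with an interval of 2.39 to 4.86), and the factors Stat5a and Stat5b, which act after IL-2. The IL-12 receptor itself was not apart by 2-fold, with Il12rb1 at 17.4 and 18.2 CPM and Il12rb2 at 74.6 and 54.6, and its factor Stat4 was at 186 and 199.

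Dividing and other T cells of the same library were compared as a description, because the genes of the same cells chose the members. Of 9275 genes with at least 50 UMIs, 5.87% were at least 2-fold higher in dividing T cells in both libraries and 2.47% at least 2-fold lower in both. Because 1 UMI was added to each sum, a gene at 0 in a library can count as higher there, which concerned 7 of the 544 higher genes and 0 of the 229 lower ones. With at least 20 UMIs of the gene required in the T cells of each library, 476 of 8788 genes were higher and 211 lower. Under that requirement 25 of 37 S genes were higher, 29 of 35 G2/M genes, 10 of 13 chromatin and tubulin genes and 7 of 14 genes of nucleotide synthesis. The replication factor Pclaf was 51.4 times the level of the other T cells in PBS and 35.0 times in cmExoaCD11b, and Ccna2 (cyclin A2) 42.8 and 48.1 times. Of 17 glycolysis genes 1 was past 2-fold in both, Tpi1 at 2.36 and 2.08 times.

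On the lower side were genes of resting and of cytokine-responsive T cells. Il7r, the receptor for the survival cytokine IL-7, stood at 0.181 and 0.228 times the level of the other T cells, and with it Ccr7, Cxcr3 and Cxcr6, 4 of 16 genes of the naive and memory list. Btg1, which holds cells at rest, stood at 0.479 and 0.415 times and cyclin D3 (Ccnd3) at 0.335 and 0.481. Il12rb2 stood at 0.411 and 0.327 times and Stat4 at 0.482 and 0.374, 2 of 4 lower genes among 18 of the IL-12 and IL-2 list. Of 16 effector genes with 20 UMIs in each library 3 were lower (Ccl5 at 0.264 and 0.262 times, Tnf at 0.235 and 0.282, and Lta) and 0 higher. Of 23 interferon-stimulated genes 5 were lower, Ifit1 among them at 0.291 and 0.265 times, and 0 higher. The list itself stood at 3738 and 7066 CPM in the other T cells, above the dividing T cells in each library.

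**Figure D5:**
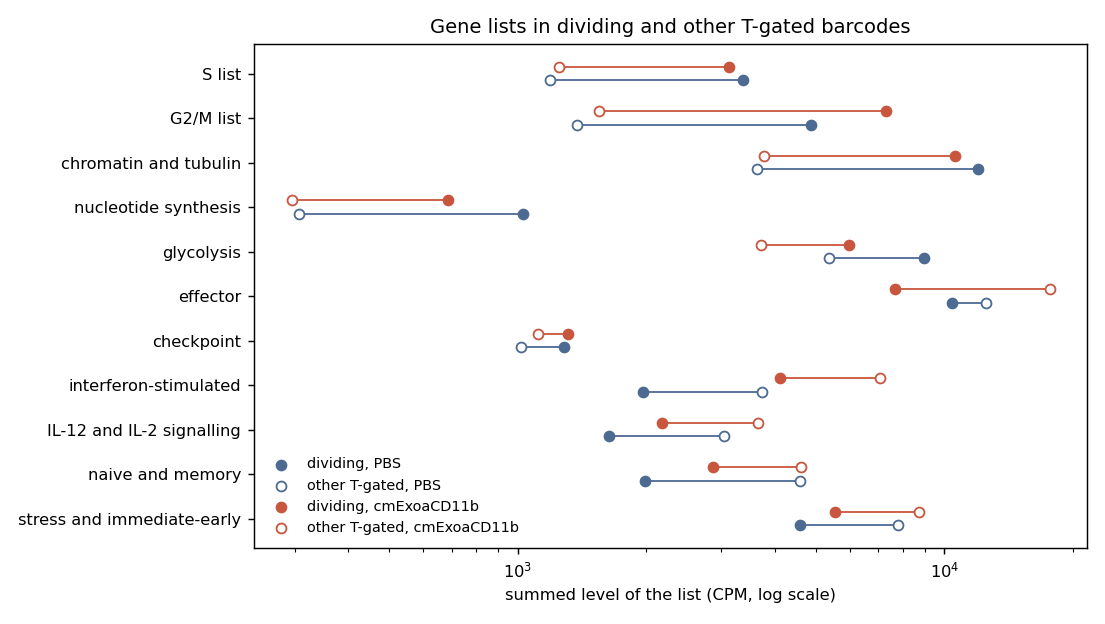
Summed level of each gene list (x axis, CPM, log scale) in dividing T cells (filled circles) and the other T cells (open circles) of PBS and cmExoaCD11b, joined by a line within each library. The S and G2/M lists are higher in dividing cells of both libraries, by selection, and the interferon-stimulated list is higher in cmExoaCD11b in both kinds of cells (1968 and 4124 CPM in dividing, 3738 and 7066 in the other T cells).

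Many of the genes farthest apart rested on single barcodes of mixed RNA. Of the 10 genes with the largest ratio toward cmExoaCD11b, Ighg1, Mzb1 and Igkc are genes of plasma cells, and 1134 of the 1149 Ighg1 UMIs came from the member described above. The others were Il4, Saa3, Phactr1, Cftr, Areg, Lrg1 and the neutrophil protease Prtn3. The 10 toward PBS held the effector genes Xcl1, Gzmc and Gzmf beside Ctsk, Mmp9, Atp6v0d2, Lpl, Tnfsf4, Igfbp7 and Ccn2. Ctsk (cathepsin K) and Mmp9, enzymes that break down matrix, had 72 and 123 UMIs in the PBS member with 64635 UMIs, which held 29 T cell UMIs.

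Of the 10 genes with the largest ratio of dividing to other T cells, Krt8, Krt19, Clu, Wfdc2, Anxa8, Xist, Ccn2, Cftr and Bok had nearly all UMIs in the 2 members with epithelial markers, and Phactr1 had all 86 in another member with 3 T cell UMIs. Ccn2, Cftr and Phactr1 were at 0 in one of the libraries. The 10 with the largest ratio the other way included the NK receptor genes Ncr1, Klrb1c, Klra7 and Klra9, of which Klra7 had 1 UMI in the members and the others 0. Beside these stood Mmp12, Dapl1, Gpnmb, E130102H24Rik, Gm1043 and Blk. At least 50% of the members' UMIs lay in 1 member for 29 of the 569 genes higher in cmExoaCD11b, 17 of the 156 lower ones and 61 of all 4770.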

How the data were processed

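Single-cell suspensions of pooled tumors from 3 mice per library were made into 3' libraries (Chromium kit 3.1). The values that the authors deposited are raw UMI counts of every gene in every barcode, without filter or normalization. The file headers name Cell Ranger 7.1.0 and the methods 3.0.2, and the genome build is not given in the sources used here. The PBS library held 67143628 UMIs in 644248 barcodes, of which 6904 were kept, and the cmExoaCD11b library held 81288480 in 723594, of which 7118 were kept.

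Counts were summed over the barcodes of a group and divided by the group's total to give CPM. The 50 UMIs a gene needed for a fold count were counted over both groups compared. A gene at 0 was set to 3 UMIs over the group for a bound, and 1 UMI was added to each sum for ratios otherwise. There is 1 library per group, so no test was run. Doublets were not removed from the main selection. As an alternative, Scrublet was run with 30 principal components and an expected share of 0.8% per 1000 barcodes, its automatic threshold marked 0 barcodes, and the 439 and 431 highest scores were removed instead. Genes named are those of the fixed lists, those of the selection and the 10 with the largest ratio in each direction and comparison; Ighg1, Ctsk and other single-barcode genes follow from this rule, whereas the genes that describe mixed barcodes (Mcpt8, Dntt and Kit among them) were chosen after their values were seen. Members and lists were chosen with earlier results of these data known. In all 96 alternatives were planned. The steps that count genes were tested on simulated data. Python 3.11.15, numpy 2.4.6, pandas 2.3.3, scipy 1.17.1, scanpy 1.11.5 and matplotlib 3.10.9 were used, with fixed seeds. Some genes that the rules select are not reported here.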

Additional observations from a re-analysis of the deposited data

How the results depend on the processing

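Of 108 alternative values for 10 results, 76 lay within the interval of the main value (counts within 1.5 times), 29 lay outside it and 3 reversed. Of the 67 ratios within it 6 lay on the other side of 1, 3 for the dividing share of T-gated barcodes (1.15, 1.12 and 1.35) and 3 for the checkpoint list. No paired analysis was possible because no mouse gave cells to both libraries and each group has 1 library. Leaving out any barcode with a UMI of 7 genes of other cell types left 2 members in PBS and 1 in cmExoaCD11b, so its ratios of cmExoaCD11b to PBS say little: 0.333 for the dividing share of T-gated barcodes, 1.15 for that of kept barcodes, 0.0452 for the effector list, 0.178 for the interferon-stimulated list and 1.27 for the checkpoint list.

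The effector ratio of 0.731 became 0.855 and 0.771 with a cycle threshold of 3 and 6 UMIs, 1.05 without Stmn1 and with 2 UMIs of the other cycle genes (34 and 110 members), 1.24 with a cycle threshold of 2 UMIs applied after thinning (16 and 43 members) and 0.779 with a T cell threshold of 4 UMIs. It became 0.876 as a mean over cells, 0.688 as CPM without mitochondrial, ribosomal and interferon-stimulated genes, 0.660 with the median gene ratio set to 1 and 0.5996 without its most abundant gene. The interferon-stimulated ratio of 2.10 became 2.27 with 6 cycle UMIs, 2.44 without Stmn1, 2.71 after thinning, 2.44 with 4 T cell UMIs, 2.35 without the highest Scrublet scores, 1.89 with the median set to 1 and 1.95 without Isg15. The checkpoint ratio of 1.03 became 0.831 with 6 cycle UMIs, 1.45 after thinning, 1.57 as a mean over cells, 0.926 with the median set to 1 and 0.905 without Tox. Among alternatives that were added with the data in view, the stricter selection gave 0.949 for the effector list, 2.55 for the interferon-stimulated list and 1.26 for the checkpoint list, and leaving out the member with most checkpoint UMIs of each library gave 1.14. The PBS side of the stricter selection keeps the 2 deep members with Ctsk, and no ratio of these lists was computed without them. Leaving out the member with most UMIs of a single effector gene, added last, moved Gzmb from 0.983 to 2.98, Gzma from 1.60 to 2.08 and Ifng from 0.388 to 0.833, and moved Prf1, Xcl1 and Ccl3 by less than their intervals. The genes at least 2-fold apart between the libraries numbered 725, 1367 with at least 20 UMIs and 351 with at least 100.

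The ratio of CD8+ shares stayed between 0.542 and 0.951, that of CD4+ shares between 1.06 and 2 and that of members with more G2/M than S UMIs between 1.05 and 2. No ratio was obtained for CD4+ members after thinning, with 0 in PBS, or for CD8+ members without any UMI of the 7 genes, with 0 in cmExoaCD11b. With 26 PBS members, a share there is known only to about the width of the intervals given, sums can rest on single deep cells, and neither the spread between mice nor any batch can be told apart from the treatment.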
